A study of Bos taurus with 9 samples.

Results

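IRX3, HOXA5, HOXA9, MEIS2, NR2F1 and MAB21L1 encode regulators of embryonic patterning, and their transcripts were followed across abdominal fat, subcutaneous fat and skeletal muscle of cattle. These 6 genes were chosen from measured values of these same arrays, and all probe sets annotated with exactly 1 of the symbols were taken. They comprised 8 of 24016 probe sets and 6 of 9155 genes with a symbol. HOXA5 and MEIS2 carried 2 probe sets each and the other 4 genes carried 1. Since the choice rested on the comparison of the depots with each other and with muscle, differences of these genes are given as descriptions with their errors and without p-values. Tests are given for other genes only.

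The animals were Yan yellow cattle bulls of 24 months, kept alike, and the labels name no treatment. Subcutaneous fat, abdominal fat and the longissimus dorsi muscle were sampled at slaughter and each put on 3 one-colour bovine arrays, and values are given in the order of replicates 1, 2 and 3. Although 9 bulls are counted, no sample is tied to an animal, so errors and p-values reflect only how these samples vary, which may be technical. Whole tissue was used, in which fewer cells of a type and less RNA per cell cannot be told apart.

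HOX genes lie in clusters and are used along the body axis in an order that follows their position in the cluster, and adult fat and connective tissue keep part of that regional pattern. MEIS2 belongs to the TALE homeodomain proteins, which bind DNA together with HOX and PBX proteins. IRX3 is an Iroquois homeodomain factor studied in fat because an enhancer within the neighbouring gene FTO contacts it, NR2F1 is the orphan nuclear receptor COUP-TFI, and MAB21L1 is a nuclear protein of eye and limb development that is not itself a homeodomain factor.

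The arrays had similar distributions, with median log2 intensities of 5.75 to 5.92, and 46.1% to 49.0% of probe sets were above a log2 value of 6. Below that value a probe set was taken as near background, where the size of a difference is not exact. The tissue labels fitted most of their markers. Of 12 skeletal muscle markers 10 were lower in fat by the test, and muscle arrays summed to 91000 to 100000 over the list, against 3840 to 7460 for abdominal and 4030 to 5000 for subcutaneous arrays. By the brightest probe set CKM was 1.46 higher in fat (adjusted p = 0.000174) and MYH7 0.60 higher (adjusted p = 0.0343). Another probe set of each gave -7.65 for CKM and -7.16 for MYH7, and a dim MYH7 probe set gave 0.06. For CKM and MYH7 the direction thus depended on the probe set. Of 11 adipocyte markers 10 were higher in fat, where 61.4% of all genes passed in either direction. RNA measures differed with tissue: the ratio of the 3′ to the 5′ actin probe set ranged over 0.963 to 1.04 for muscle, 2.24 to 5.69 for abdominal and 3.86 to 8.17 for subcutaneous arrays, and the part of this in the differences between fat and muscle was not tested.

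IRX3 gave the widest separation of the depots. Its log2 intensity was 7.93, 7.80 and 7.97 in abdominal fat, 10.49, 9.94 and 10.21 in subcutaneous fat, and 8.43, 8.38 and 8.79 in muscle. All subcutaneous arrays lay above all muscle arrays, and all muscle arrays lay above all abdominal arrays. The gap between the closest arrays was 1.14 between subcutaneous fat and muscle and 0.41 between muscle and abdominal fat. The means were 7.90 ± 0.09, 10.21 ± 0.28 and 8.54 ± 0.23 (SD, n = 3) in abdominal fat, subcutaneous fat and muscle. Abdominal minus subcutaneous fat was -2.31 ± 0.17 (moderated SE), 4.97-fold higher in subcutaneous fat, and it ranked 35 of the 24016 probe sets by size of the depot difference. Against muscle the depots went opposite ways, with -0.64 ± 0.17 for abdominal fat (1.55-fold lower) and 1.68 ± 0.17 for subcutaneous fat (3.20-fold higher). The mean of both depots therefore exceeded muscle by 0.52 ± 0.15, a value that describes neither depot.

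MAB21L1 kept the same order of tissues at a much dimmer signal. Abdominal fat gave 2.88, 2.88 and 3.11, subcutaneous fat 5.34, 4.56 and 4.31, and muscle 4.01, 3.41 and 4.13. Every one of the 9 arrays was below 6, so the order is clearer than the sizes. The tissues did not overlap, but muscle was only 0.18 below subcutaneous fat and 0.30 above abdominal fat at the closest arrays. With means of 2.96 ± 0.13, 4.74 ± 0.53 and 3.85 ± 0.38 (SD, n = 3) in abdominal fat, subcutaneous fat and muscle, abdominal minus subcutaneous fat was -1.78 ± 0.27 (SE), 3.43-fold higher in subcutaneous fat. It was -0.86 when 16 was added to each intensity before the logarithm. Abdominal fat stood at -0.89 ± 0.27 and subcutaneous fat at 0.89 ± 0.27 relative to muscle, so the mean of the depots differed from muscle by 0.00 ± 0.23.

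**Figure D1:**
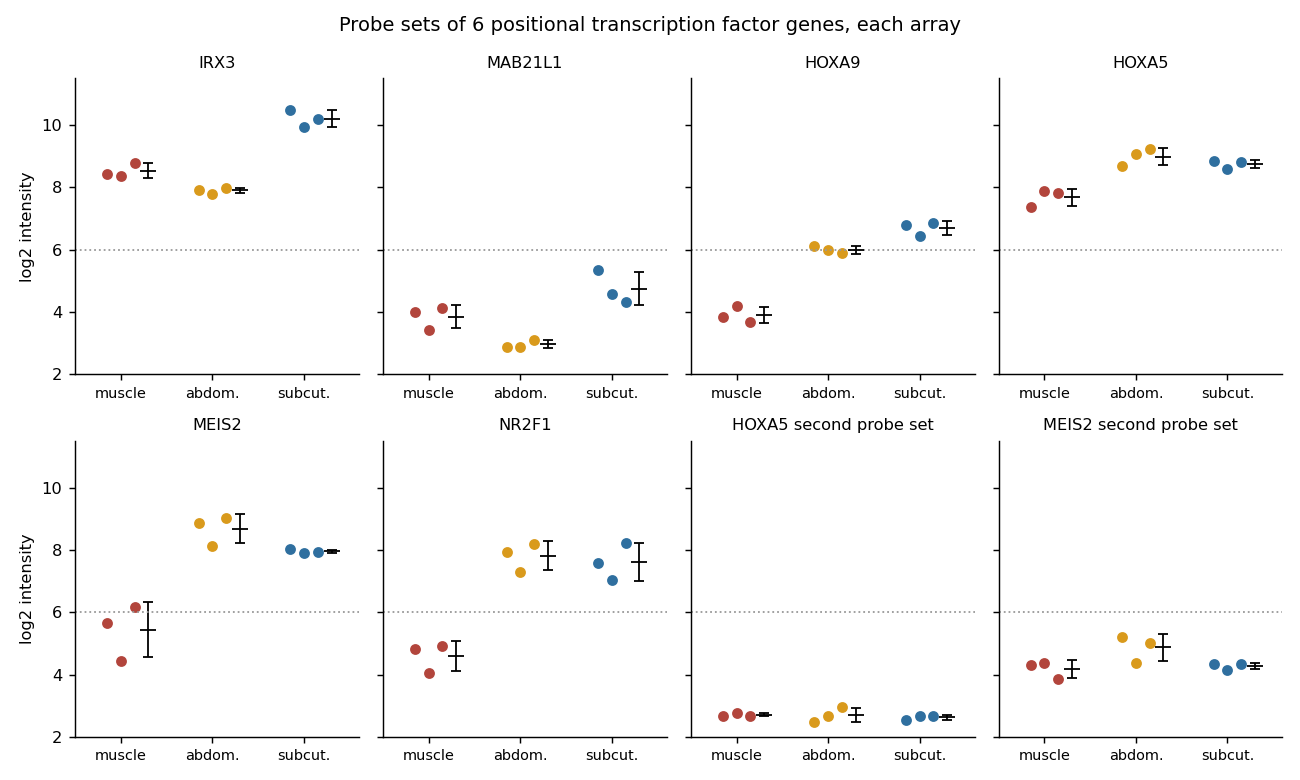
Log2 intensity of the 8 probe sets on each of the 9 arrays, with each tissue's 3 arrays as points and their mean ± SD beside them. The dotted line marks a log2 value of 6. IRX3 and MAB21L1 place subcutaneous fat above and abdominal fat below muscle, while the main probe sets of HOXA9, HOXA5, MEIS2 and NR2F1 place both depots above muscle.

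HOXA9, from the middle to posterior part of the HOXA cluster, was low in muscle and higher in both depots. Its arrays read 6.11, 5.99 and 5.88 in abdominal fat, 6.79, 6.45 and 6.85 in subcutaneous fat, and 3.85, 4.18 and 3.68 in muscle. The 3 tissues did not overlap, with subcutaneous fat highest, and the muscle arrays were near background. Abdominal replicates 2 and 3 were also below 6, though only just. Means were 5.99 ± 0.12, 6.70 ± 0.22 and 3.90 ± 0.25 (SD, n = 3). The mean of the depots exceeded muscle by 2.44 ± 0.14 (SE), or 5.43-fold, and by 1.65 with 16 added to each intensity before the logarithm. Between the depots the difference was far smaller, -0.70 ± 0.16 for abdominal minus subcutaneous fat, 1.63-fold higher in subcutaneous fat.

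HOXA5, nearer the anterior end of the same cluster, was brighter in fat and did not separate the depots. Its main probe set, the brighter one, gave 8.69, 9.06 and 9.22 in abdominal fat, 8.84, 8.59 and 8.82 in subcutaneous fat, and 7.37, 7.87 and 7.81 in muscle. Every fat array exceeded every muscle array, by 0.72 at the closest pair. The depots overlapped, with a difference of 0.24 ± 0.18 (SE), whereas their mean exceeded muscle by 1.19 ± 0.16, or 2.27-fold. The second HOXA5 probe set lay between 2.48 and 2.95 on all 9 arrays, and its tissue means differed by at most 0.07. It thus carried no tissue difference that these arrays could show at so dim a signal, and the finding for HOXA5 rests on 1 probe set. Averaging both probe sets gave 0.57 for fat minus muscle.

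The remaining HOX genes put these values in context. Of 37 other HOX genes listed, 9 had a probe set, and 7 of those were below 6 on average in muscle, 8 in abdominal fat and 7 in subcutaneous fat, not the same genes in each. In fat 2 were higher than muscle by the test and 3 were lower, with a median difference of 0.03 against -0.02 over all genes. Of all genes 61.4% passed in either direction. HOXA4, the nearest measured gene to HOXA5 on its other side from HOXA9, went the other way from HOXA5: it read 5.72, 5.75 and 6.02 in abdominal fat, 5.60, 5.45 and 5.80 in subcutaneous fat, and 6.64, 7.61 and 6.73 in muscle. All 6 fat arrays were below all muscle arrays, and the difference was -1.27 (adjusted p = 0.000588). HOXC5 was also lower in all 6 fat arrays, with a difference of -0.86 (adjusted p = 0.000951).

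HOXB4 was 0.84 higher in fat (adjusted p = 0.0105), but its abdominal arrays overlapped muscle and leaving out muscle replicate 2 ended the call (adjusted p = 0.0533). HOXC6 at -0.49 (adjusted p = 0.0399) and HOXB7 at 0.40 (adjusted p = 0.0296) were named after their values were seen, as the remaining genes to pass. HOXC6 lost its call in 10 and HOXB7 in 8 of the alternatives and left-out arrays, with highest adjusted p of 0.177 and 0.108. A second HOXC6 probe set gave -0.24 (adjusted p = 0.201). With each array centred on its median 1 HOX gene was higher and 3 lower, and with quantile normalization 2 were higher and 2 lower.

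Between the depots 0 of the 9 other HOX genes passed. Of these, 8 had a lower mean in abdominal than in subcutaneous fat, with a median of -0.31 against -0.04 over all genes, and 5 had abdominal arrays that all lay below the subcutaneous arrays. Arrays of the 2 depots did not overlap, in either direction, for 28.6% of all genes and for 4 of the 6 chosen genes. HOXB4 was the most depot-divided of the HOX list, with 5.22, 5.98 and 6.11 in abdominal fat and 6.57, 6.51 and 6.87 in subcutaneous fat, a difference of -0.88 ± 0.26 (SE, adjusted p = 0.142). HOXA5 and HOXA4, at 0.24 and 0.20, were the HOX genes with a higher mean in abdominal fat, and neither separated the depots.

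**Figure D2:**
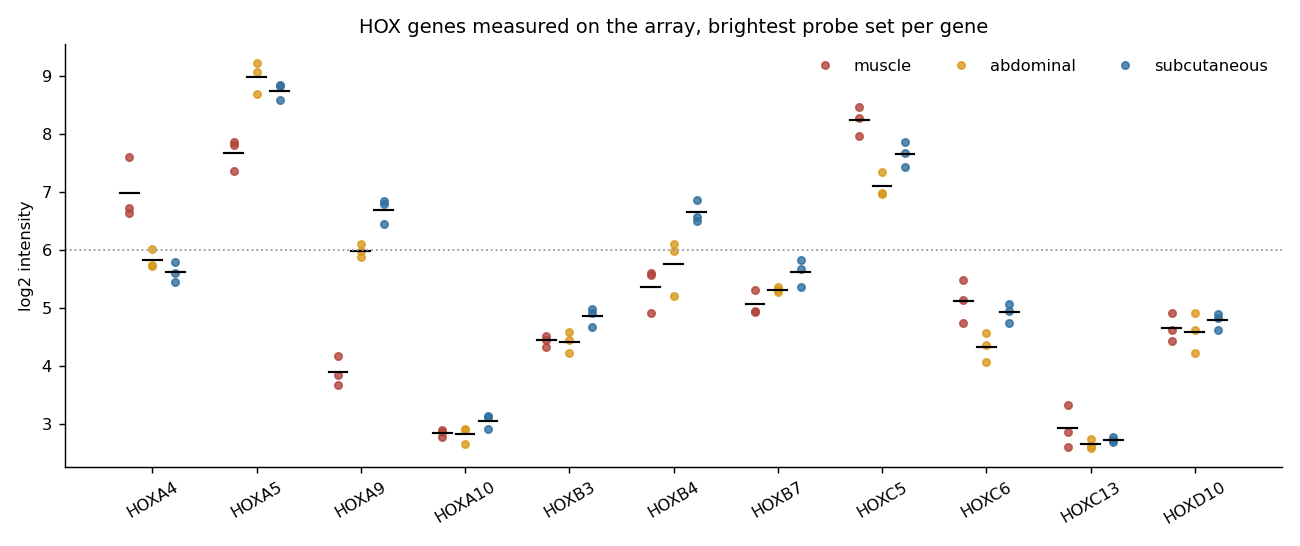
Log2 intensity of HOXA5, HOXA9 and the 9 other measured HOX genes on each array, in cluster order, with points for the arrays of each tissue and a bar at their mean, by the brightest probe set. HOXA9 and the main HOXA5 probe set have their fat arrays above muscle, HOXA4 and HOXC5 have them below, and most other HOX genes lie under the dotted line at 6.

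MEIS2 was high in both depots and varied unevenly within tissues, with close subcutaneous arrays and spread abdominal and muscle arrays. The main probe set read 8.88, 8.14 and 9.03 in abdominal fat, 8.02, 7.92 and 7.95 in subcutaneous fat, and 5.67, 4.45 and 6.18 in muscle. Fat and muscle were separated by 1.73 at the closest arrays, while the depots were separated by 0.13. Muscle replicates 1 and 2 were below 6, so the size of the difference from muscle is not exact. Means were 8.69 ± 0.47, 7.96 ± 0.05 and 5.44 ± 0.89 (SD, n = 3), so the mean of the depots exceeded muscle by 2.89 ± 0.33 (SE), or 7.41-fold. Abdominal fat was 9.51-fold and subcutaneous fat 5.77-fold above muscle, and abdominal minus subcutaneous fat was 0.72 ± 0.39. That value was 0.99 without abdominal replicate 2 and 0.55 without abdominal replicate 3.

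The second MEIS2 probe set was dim, with 5.20, 4.37 and 5.02 in abdominal fat, 4.35, 4.16 and 4.33 in subcutaneous fat, and 4.31, 4.37 and 3.85 in muscle. It kept the abdominal arrays above the subcutaneous ones, with a difference of 0.58 ± 0.22, and its abdominal and muscle arrays touched at replicate 2. Its fat minus muscle difference was 0.40 ± 0.19, against 2.89 for the main probe set, and the mean of both gave 1.64. The size of the MEIS2 difference from muscle thus depended on the probe set.

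The list of other TALE proteins, which also held the PBX-binding protein PBXIP1, had genes higher and genes lower in fat. Of 7 measured, 3 were higher in fat and 2 lower, where 61.4% of all genes passed in either direction. The median difference was 0.15. PBX3, a PBX partner of HOX and MEIS proteins, showed the widest gap: 7.40, 7.46 and 7.78 in abdominal fat, 7.42, 7.51 and 7.31 in subcutaneous fat, and 4.91, 4.96 and 4.94 in muscle. It was 2.54 higher in fat (adjusted p = 1.58e-07), on all 6 fat arrays, and overlapped fully between depots (0.13, adjusted p = 0.738). MEIS1 was 0.67 higher (adjusted p = 0.00936), but below 6 on every array. PKNOX1, another TALE partner of PBX, was lower, with all 6 fat arrays below muscle and a difference of -0.82 (adjusted p = 0.000334).

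PBX2, at 0.43 (adjusted p = 0.0163), and MEIS3, at -0.35 (adjusted p = 0.0348), were the remaining genes to pass by the brightest probe set. TGIF1 gave 0.15 (adjusted p = 0.337) by its brightest probe set and 0.90 (adjusted p = 0.0044) by its second. MEIS3 was below 6 on every array. PBX2 lost its call with centred arrays, with quantile normalization and without muscle replicate 2 (highest adjusted p = 0.175), and MEIS3 lost it in 7 of the runs with 1 array left out (highest adjusted p = 0.138). A second PBX2 probe set gave 0.28 (adjusted p = 0.0729), and the other MEIS3 probe sets gave -0.62 (adjusted p = 0.00236) and -0.02 (adjusted p = 0.894). None of the 7 passed between the depots, where PBX2 had the smallest p with -0.24 (adjusted p = 0.513).

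NR2F1 separated both depots from muscle by the widest margin of the 6 genes and did not separate the depots. The arrays read 7.95, 7.29 and 8.21 in abdominal fat, 7.58, 7.04 and 8.24 in subcutaneous fat, and 4.82, 4.04 and 4.91 in muscle. The lowest fat array was 2.13 above the highest muscle array, and all muscle arrays were near background. Means of 7.82 ± 0.47, 7.62 ± 0.60 and 4.59 ± 0.48 (SD, n = 3) gave fat minus muscle of 3.13 ± 0.30 (SE), or 8.74-fold, and 2.49 with 16 added to each intensity. The depots overlapped, with a difference of 0.20 ± 0.35 that became -0.09 without subcutaneous replicate 2.

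NR2F2, the close relative COUP-TFII and a factor of veins, mesenchyme and fat, had the same arrangement of tissues: 9.06, 8.90 and 9.00 in abdominal fat, 8.87, 8.81 and 9.14 in subcutaneous fat, and 6.78, 6.68 and 7.87 in muscle. It was 1.85 higher in fat (adjusted p = 0.000115), on all 6 fat arrays, with 0.05 between the depots (adjusted p = 0.973). A second NR2F2 probe set gave 1.87, and the dimmest, near background, gave -0.20. NR2C1, an orphan receptor of a neighbouring subfamily, was 0.91 higher (adjusted p = 0.000644). BCL11A, a COUP-TF binding repressor, differed by -0.38 near background (adjusted p = 0.0321), a call lost in 7 of the alternatives and left-out arrays (highest adjusted p = 0.14). MB21D2, the 1 measured relative of MAB21L1, differed by -0.28 (adjusted p = 0.22) from muscle. No other Iroquois gene was measured.

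**Figure D3:**
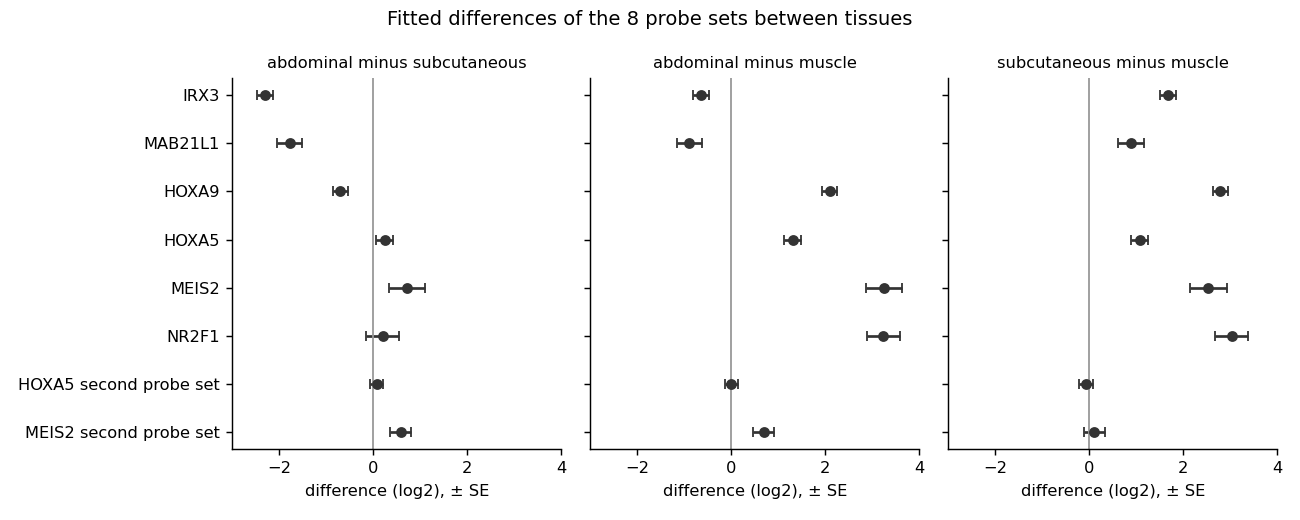
Fitted log2 differences of the 8 probe sets with their moderated standard errors, for abdominal minus subcutaneous fat and for each depot minus muscle. IRX3 and MAB21L1 have depot differences of -2.31 and -1.78 and lie on opposite sides of 0 against muscle, and NR2F1 lies near 3 against muscle in both depots.

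How many of the 8 probe sets passed an adjusted p threshold of 0.05 is given with the share over all probe sets, and nothing is read from it because the rule used these contrasts. Fat minus muscle passed for 5, where 52.6% of all probe sets passed. Abdominal minus subcutaneous fat passed for 2, where 1.31% passed. Abdominal fat minus muscle passed for 7 (46.6% of all) and subcutaneous fat minus muscle for 6 (47.0% of all). Fat and muscle arrays did not overlap for 4 probe sets (44.8% of all), and the depots did not overlap for 5 (23.6% of all). By gene, with the brightest probe set, 5 of 6 passed for the mean of the depots minus muscle, where 61.4% of all genes passed in either direction. In all 5 that mean was above muscle, although IRX3 in abdominal fat was below muscle. Between the depots 0 were higher in abdominal fat (0.808%) and 2 were lower (0.688%).

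Other developmental factors known for regional expression in fat or mesenchyme included genes higher and genes lower in fat. Of 15 measured out of 54 listed, by the brightest probe set 4 were higher in fat and 4 lower, where 61.4% of all genes passed in either direction. The median was -0.03, and 0 passed between depots. MSX1, a homeobox gene of limb and craniofacial mesenchyme, read 7.70, 9.07 and 7.86 in abdominal fat, 9.30, 9.65 and 9.64 in subcutaneous fat, and 4.96, 5.76 and 5.24 in muscle. It was 3.55 higher in fat on all 6 arrays (adjusted p = 6.73e-06), and all abdominal arrays were below the subcutaneous ones, with a difference of -1.32 (adjusted p = 0.0983). GATA6, a zinc finger factor of visceral mesoderm, ran the other way between depots, with 8.18, 7.11 and 7.92 in abdominal fat, 6.07, 6.38 and 6.90 in subcutaneous fat, and 4.91, 4.59 and 5.35 in muscle. Its difference from muscle was 2.14 (adjusted p = 0.000103) and between depots 1.29 (adjusted p = 0.0804).

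FOXP2, a forkhead repressor, fell in fat, with a difference of -1.29 (adjusted p = 5.08e-05), at a dim signal. NR5A1, a steroidogenic nuclear receptor, differed by -1.09 (adjusted p = 0.000314), with means of 5.98 in abdominal and 5.82 in subcutaneous fat, near background. Its other probe sets gave -0.81 (adjusted p = 0.00017), -0.32 (adjusted p = 0.178) and -0.28 (adjusted p = 0.0688). PITX1, a hindlimb homeobox factor, differed by -0.84 (adjusted p = 0.000418) and was below 6 on every array. A second PITX1 probe set gave -0.46 (adjusted p = 0.00929). EMX2 had subcutaneous arrays of 6.25, 6.16 and 6.44 above abdominal arrays of 4.94, 5.13 and 5.32, a difference of -1.15 that did not pass (adjusted p = 0.113). Probe sets disagreed for OSR2: the brightest gave -0.30 between the depots (adjusted p = 0.49), the others -1.95 (adjusted p = 0.059) and -1.50 (adjusted p = 0.0232). NR5A1, PITX1, OSR2 and EMX2 were named after their values were seen.

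Retinoic acid acts upstream of HOX and COUP-TF genes during development, and 13 of 21 listed genes of its synthesis, binding and response were measured. Against muscle 7 were higher in fat and 2 lower, where 61.4% of all genes passed in either direction. The median was 0.87, against -0.02 over all genes. RARRES2, the precursor of the adipokine chemerin, was 1.88 higher (adjusted p = 1.99e-05) and RARRES1 1.83 higher (adjusted p = 0.00181). CRABP1, which binds retinoic acid in the cytoplasm, was lower, at -1.77 (adjusted p = 0.000107), but below 6 on every array. Between the depots 2 passed, and by the brightest probe set no other family or pathway list held a gene that did. TGM2, a transglutaminase induced by retinoic acid, gave 8.45, 9.11 and 9.08 in abdominal fat, 6.73, 6.83 and 7.10 in subcutaneous fat, and 7.25, 7.70 and 8.00 in muscle, so that muscle lay between the depots as for IRX3 but with the depots exchanged. Its depot difference was 1.99 ± 0.23 (SE, adjusted p = 0.00754).

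CRABP2, the other cytoplasmic binder, was lower in abdominal fat, with 4.55, 3.97 and 4.48 against 5.39, 5.68 and 5.83, all near background. The difference of -1.30 ± 0.23 (SE, adjusted p = 0.0354) did not pass in 8 of the alternatives and left-out arrays, where the adjusted p reached 0.111. The receptors RXRA and RXRG pointed in opposite directions between the depots without passing, at -0.89 (adjusted p = 0.0761) and 0.67 (adjusted p = 0.0899).

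Polycomb and trithorax subunits, which keep HOX genes silent or active, were examined in the same way. Their list also held CTCF, which is not such a subunit. Of 16 listed genes measured, 4 were higher in fat and 2 lower, where 61.4% of all genes passed in either direction. The median was 0.10, and 0 passed between the depots. MEN1, a trithorax cofactor, was 0.79 higher (adjusted p = 0.00201), RBBP4 0.49 higher (adjusted p = 0.00162) and WDR5 lower at -0.62 (adjusted p = 0.00202). A second WDR5 probe set, at 6.70, 6.67 and 6.70 in abdominal fat, subcutaneous fat and muscle, gave -0.02 (adjusted p = 0.877), and a dim second MEN1 probe set gave -0.19 (adjusted p = 0.155). EED was also among the 4 by its brightest probe set, but the annotation gives it 23 probe sets whose differences from muscle run from -3.06 to 2.09, so no level of EED is read from them. Over all 8 family and pathway lists 64 of 170 genes were measured, of which 22 were higher and 14 lower in fat than in muscle. That made 36 of 64, where 61.4% of all genes passed in either direction. Between depots 1 was higher in abdominal fat and 1 lower, where 0.808% and 0.688% of all genes were.

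**Figure D4:**
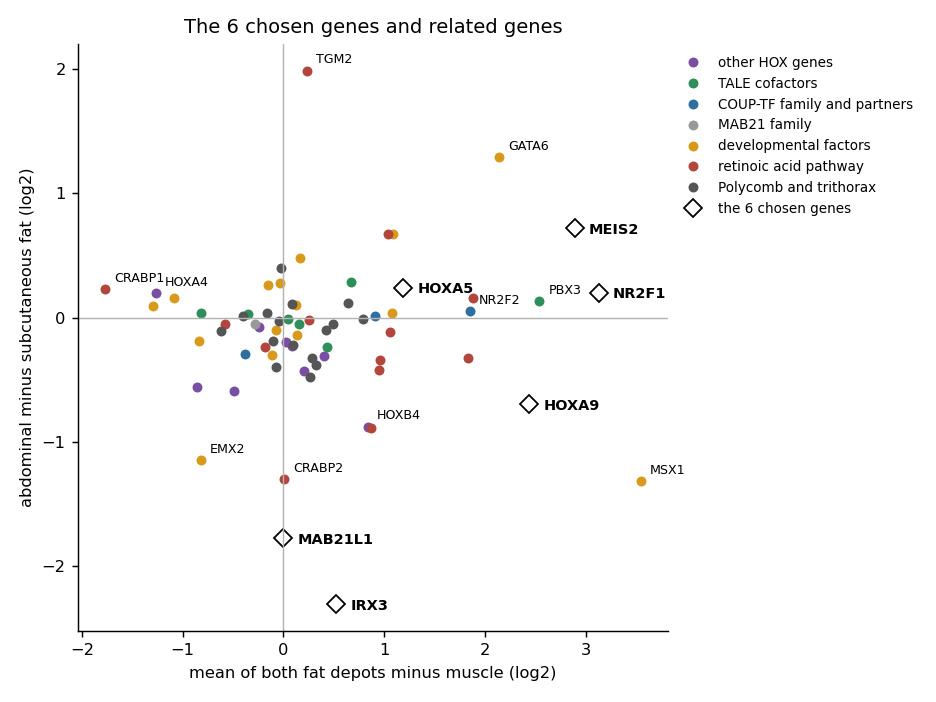
Log2 differences of the measured family and pathway genes, with fat minus muscle on one axis and abdominal minus subcutaneous fat on the other, and the 6 chosen genes marked. Most family genes spread along the muscle axis near 0 between depots. IRX3, MAB21L1, MSX1, CRABP2 and EMX2 lie toward subcutaneous fat, and TGM2 and GATA6 toward abdominal fat.

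Genes beside the 6 on the chromosome were compared between the depots as well. In the gene order of the RefSeq annotation of assembly ARS-UCD2.0, the nearest 2 measured protein-coding genes on each side were taken, and outside the chosen genes none passed between the depots, which does not show that they did not differ. FTO, next to IRX3, was 1.16 higher in fat than in muscle (adjusted p = 0.000246) but averaged 9.03 in abdominal and 9.08 in subcutaneous fat, a difference of -0.05 (adjusted p = 0.959). MMP2, the nearest measured gene on the other side of IRX3, with 2 unmeasured genes between, averaged 9.23 and 10.39, in the direction of IRX3 (-1.16, adjusted p = 0.0981). RFC3, next to MAB21L1 in this order, likewise had the lower mean in abdominal fat (-0.81, adjusted p = 0.17). SPRED1, near MEIS2, had the higher one (0.61, adjusted p = 0.233). DCLK1, on the other side of MAB21L1 with 1 unmeasured gene between, was 1.98 higher in fat (adjusted p = 0.000168). Its depot difference was -0.01 (adjusted p = 0.995). HOXA10, beyond HOXA9, stayed near background with means of 2.83, 3.06 and 2.85 in abdominal fat, subcutaneous fat and muscle.

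Likeness was described by Pearson's r over the 6 fat arrays among 6373 genes with a mean log2 above 6 in at least 1 depot. These arrays form 2 depots of 3, so for a gene that separates the depots r mostly restates the depot difference, and no p is given. IRX3 was followed most closely by DDX19A (r = 0.997), TOR3A (0.994) and ZNF800 (0.994), whose depot differences of -0.44, -0.66 and -0.34 were far smaller, and most opposed by ELOVL7 (-0.996), a fatty acid elongase with means of 7.57 in abdominal and 5.41 in subcutaneous fat, and NRROS (-0.995). MAB21L1 was nearest to MON1A (0.995), UIMC1 (0.994) and TUBGCP2 (0.993), opposite LAMB1 (-0.995) and MOSPD2 (-0.99). HOXA9 was nearest to TRAF4 (0.996), TEAD3 (0.989) and AGTRAP (0.989), opposite CREM (-0.996) and GPRC5C (-0.996).

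For the genes without a depot separation, HOXA5 and NR2F1, the arrays of the depots overlap and r follows variation across all 6 arrays. HOXA5 was nearest to RPA2 (0.969), XRCC6 (0.964) and VEGFC (0.954), opposite GPN3 (-0.984) and MPHOSPH6 (-0.98). NR2F1 was nearest to LPAR6 (0.976), the glucocorticoid receptor NR3C1 (0.965) and SLC22A17 (0.964), opposite FBXW11 (-0.992) and PRPF6 (-0.99). MEIS2 was nearest to FNDC3B (0.995), SYNRG (0.988) and NECTIN2 (0.988), opposite FKBP9 (-0.988) and GRTP1 (-0.986). Only 6 of these 30 genes were named by Spearman's rho as well.

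Markers of other cell types moved with part of these values. Mesothelium covers abdominal fat, and 10 of 16 of its markers were measured, of which 0 passed between depots. UPK1B read 7.90, 3.77 and 7.38 in abdominal fat and 2.86, 2.52 and 2.72 in subcutaneous fat (3.65, adjusted p = 0.0761), MSLN 6.32, 4.39 and 6.41 in abdominal fat, and the summed intensity of the list was 1590, 815 and 1170 on the abdominal arrays, 947 to 1180 on the subcutaneous and 541 to 648 on the muscle arrays. Without abdominal replicate 2 the depot differences were 4.94 for UPK1B and 2.29 for MSLN, and both then passed. Over the alternatives and left-out arrays the adjusted p ran from 0.00035 to 0.225 for UPK1B and from 0.00471 to 0.372 for MSLN. Abdominal replicate 2 was thus lowest in UPK1B, MSLN and the summed list, though not in CLDN15 or RSPO1 of the 10 markers. Of the 10, 3 had a lower mean in abdominal than in subcutaneous fat. Abdominal replicate 2 was also lowest of the abdominal arrays in MEIS2, NR2F1 and GATA6. The part of mesothelium in those values was not tested. IRX3 stood at 7.80 on that array and at 7.93 and 7.97 on the other abdominal arrays. For IRX3, MEIS2 and NR2F1 replicate 2 was the lowest array in all 3 tissues, not in abdominal fat alone.

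Endothelial markers summed to 8210 to 9150 on abdominal, 6050 to 7240 on subcutaneous and 1520 to 1750 on muscle arrays, and TEK (1.09) and PLVAP (0.97) of 11 measured were higher in abdominal fat (adjusted p = 0.0293 for both). TEK lost that call in 8 and PLVAP in 6 of the alternatives and left-out arrays, with highest adjusted p of 0.0925 and 0.12. Among all genes, 0.808% were higher in abdominal fat by the test and 0.688% lower. Abdominal arrays all lay above the subcutaneous arrays for 7 of the 11 endothelial markers and below for 0. Their median difference was 0.53, against -0.04 over all genes. The depots did not overlap, in either direction, for 28.6% of all genes. Of 14 preadipocyte and fibroblast markers, only SFRP2 passed between depots, 2.45 higher in abdominal fat (adjusted p = 0.0248, and up to 0.0867 with arrays left out). Most of the list went the other way: 10 of the 14 had a lower mean in abdominal fat, with a median of -0.19. Abdominal arrays all lay below the subcutaneous arrays for 4 of them and above for 1. Against muscle 11 were higher in fat, where 61.4% of all genes passed in either direction. The part of these cell types in the depot and muscle differences above was not tested.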

How the data were processed

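Gene expression was measured in 3 tissues of cattle with 3 arrays each. The authors deposited linear intensities, from 3.06 to 17450.5, for each probe set. RMA is named per the submitters' processing notes; its settings: not given in the sources used here. Log2 values had been planned for, so deposited intensities were converted to log2, with no further normalization. Of 24128 probe sets, 112 Affymetrix controls were left out. The platform annotation, updated by gene identifier, gave 13292 of 24016 probe sets 1 symbol, 86 several and 10638 none.

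A limma (3.58.1, R 4.3.3) means model with a term per tissue was fitted across 24016 probe sets, with Benjamini-Hochberg adjustment over all of them and a threshold of 0.05, and the procedure was tested on simulated data. A gene was represented by its brightest probe set. Differences are fitted log2 values with moderated standard errors. The plan gave an adjusted p for the 6 genes against muscle; it is not printed, since their choice also rested on that comparison. The genes and lists were chosen with earlier results of these data known. Named were all 6 genes, per list and contrast up to 3 passing genes with the largest difference (or the smallest p where none passed), and per gene 3 most alike and 2 most opposed. Alternatives covered scaling, an intensity filter, 16 added, the prior, array weights, the title number as a block, the arrays fitted, the probe set mean and each array left out.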

Additional observations from a re-analysis of the deposited data

Results flagged for a closer look

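For 3 genes the depots lay on opposite sides of muscle, with every abdominal array on one side of every muscle array and every subcutaneous array on the other. IRX3 did so with an abdominal minus subcutaneous difference of -2.31 and MAB21L1 with -1.78, both lowest in abdominal fat. TGM2 did so with 1.99, highest in abdominal fat. That the effects against muscle differ in direction was not tested by itself. The same arrangement, in either direction, occurred for 38 of 24016 probe sets (0.158%). MAB21L1 was below a log2 intensity of 6 on all 9 arrays.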

How the results depend on the processing

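No called difference changed sign. Among uncalled differences of the 6 genes, NR2F1 between depots went from 0.20 to -0.09 without subcutaneous replicate 2, and differences near 0 of the second HOXA5 probe set and of MAB21L1 against muscle took either sign. The depot calls numbered 314, and 1034 with array weights, 118 with the title number as a replicate block, and 57 (without abdominal replicate 3) to 491 (without muscle replicate 3) with 1 array left out. They moved by over 1.5 times without each array except muscle replicate 2 (352). Fat minus muscle calls numbered 11930 with the block against 12628. Same-numbered arrays correlated in their deviations at 0.043 to 0.362, and differently numbered arrays of different tissues at -0.324 to 0.17. Between the depots the same-numbered pairs gave 0.33 and 0.362. Abdominal and subcutaneous fat share only 2 numbers and the labels do not explain them, so the numbers were not taken as pairs in the main fit. List genes called between depots were 2, and 7 with array weights, 1 with the block, 1 with the filter over 6, 1 with 16 added, and 1 to 4 with 1 array left out. Averaging probe sets gave 0.57 for HOXA5 and 1.64 for MEIS2 against muscle; adding 16 gave 1.65 for HOXA9 and 2.49 for NR2F1 against muscle and -0.86 for MAB21L1 between depots. Of the 30 most alike or opposed genes, 6 remained by Spearman's rho and 18 with centred arrays. Centring also moved the share of fat minus muscle calls that were higher from 49.8% to 39.2% and the median difference from -0.06 to -0.18. The cause of these shifts was not tested. IRX3 ranged from -2.45 to -2.17 with 1 array left out. Of the genes named by rule, 39 of 43 kept their fat minus muscle call in every setting and 1 of 5 (TGM2) the depot call. Dim probe sets have no value under the filter. The number of arrays limits the precision.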

Other observations

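Titles of the samples begin with a number that the labels do not explain, and the second replicate of each tissue carries number 5. That array was the lowest of its tissue in all 3 tissues for IRX3, MEIS2 and NR2F1, in 2 tissues for MAB21L1, and in 1 each for HOXA5 and HOXA9. Abdominal minus subcutaneous differences between arrays of the same number were -2.56 (number 4) and -2.14 (number 5) for IRX3, -2.45 and -1.69 for MAB21L1, and -0.68 and -0.46 for HOXA9. They were 0.86 and 0.23 for MEIS2, 0.37 and 0.25 for NR2F1, and -0.16 and 0.48 for HOXA5, so HOXA5 alone of the 6 differed in sign between the numbers.

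Markers of macrophages were low on the first replicate of both depots, with summed intensities of 5760, 11500 and 9390 in abdominal fat and 5790, 11800 and 11600 in subcutaneous fat, and 1140 to 2740 in muscle. All 8 measured lymphocyte markers had means below 6 in every tissue.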
